A study of Mus musculus with 6 samples.

Results

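The genes described here encode the importins, the soluble receptors that carry proteins into the nucleus. They were chosen by gene name from the deposited table of ribosome footprints of mouse oocytes and comprise 6 importin alpha genes (Kpna1, Kpna2, Kpna3, Kpna4, Kpna6 and Kpna7) and the importin beta gene Kpnb1, 7 of the 22416 genes listed. Footprints, the mRNA stretches shielded from nuclease by a bound ribosome, were sequenced by Ribo-lite, a ribosome profiling method for few cells, from 500 oocytes per library. There were 6 libraries in 3 groups of 2. All oocytes were labelled WT and, per the study's methods, came from females of C57BL/6 background aged 4 weeks and primed with PMSG, a gonadotropin that stimulates follicle growth. WT_FGO were fully grown oocytes labelled as control, at the germinal vesicle stage in which the nucleus is still intact. WT_MII were control oocytes matured in culture to metaphase II, and Treat_MII were treated oocytes labelled as that stage. The labels call the treatment only Treat. In the methods it is BYBX, a small molecule that binds RNA G-quadruplexes, folds formed by runs of guanine, with the solvent DMSO given to controls. The study reports that BYBX lowered the share of oocytes releasing the first polar body. Treated oocytes that did reach metaphase II had abnormal spindles, so the treated and control groups may differ in more than the ligand. The study's supplement calls the Ribo-lite replicates biological, but no source used here says whether they came from separate mice, so p-values measure only the spread between these libraries.

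Importin alpha is the adapter that recognises the nuclear localisation signal of a cargo protein, and importin beta is the carrier that takes adapter and cargo through the nuclear pore. RanGTP releases the cargo in the nucleus, and importin alpha returns to the cytoplasm with its exportin, encoded by Cse1l. In a dividing cell, including the oocyte after its nucleus has broken down, the same proteins hold spindle assembly factors inactive until RanGTP near the chromosomes frees them. The adapters fall into sequence groups, Kpna1 with Kpna6, Kpna3 with Kpna4, and Kpna2 with Kpna7, and Kpna7 is known as the adapter of mammalian oocytes and early embryos.

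A value for Kpna2 depends on sequence that other places in the mouse genome also hold. Of its 1560 coding words of 28 bases, about the length of a footprint, 1537 (98.5%) also occurred outside the gene in GRCm38, the assembly also called mm10. In 2 of the 13 places with such words over 90% of all words were found. They are Gm10184, annotated as protein coding (chr17:89908730-89910316, 96.4% of the words), and the processed pseudogene Gm10259 (chr3:25211019-25212605, 94.6%). Gm10184 was itself listed at 0 FPKM in all 6 libraries. The 23 words found nowhere else lay in 2 runs of 12 and 11. Shown here from the GENCODE transcript of Kpna2, on the minus strand of chromosome 11, are the first coding word in exon 2 with the start codon in capitals, and the first word of each unique run, both in exon 7, to show how little of the gene is its own.
Kpna2, coding bases 1 to 28 (chr11:106997285-106997312), found in 3 other places: ATGtccacgaacgagaatgctaacttac
Kpna2, coding bases 669 to 696 (chr11:106991303-106991330), found nowhere else: tggttacttacgtaatcttacctggaca
Kpna2, coding bases 686 to 713 (chr11:106991286-106991313), found nowhere else: ttacctggacactttcaaacctttgtcg

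The other members did not share this property. Words found elsewhere made up 8.09% of those of Kpna7 and 0% of those of Kpna1, Kpna3, Kpna4, Kpna6 and Kpnb1. None of the 21 pairs of members had a coding word of 28 bases in common, so a footprint of that length could not be exchanged between them. Across the table, 80.0% of the 1344 genes with at least 90% of their coding words in transcripts of other genes were listed at 0 in all 6 libraries, against 13.7% of the 16004 genes with under 10%. Among 31 other nuclear transport genes and importin cargoes, the 2 listed at 0 throughout were Nutf2, which returns Ran to the nucleus, and Rangrf, a Ran-binding factor, with 100% and 94.7% of their words found elsewhere. How reads that fit several places were counted is not given in the sources used here. Ran (79.4%) and Kifc1 (70.3%), with most of their words found elsewhere, did have reads. Whether shared words were the reason for a listed 0 was not tested.

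**Figure D1:**
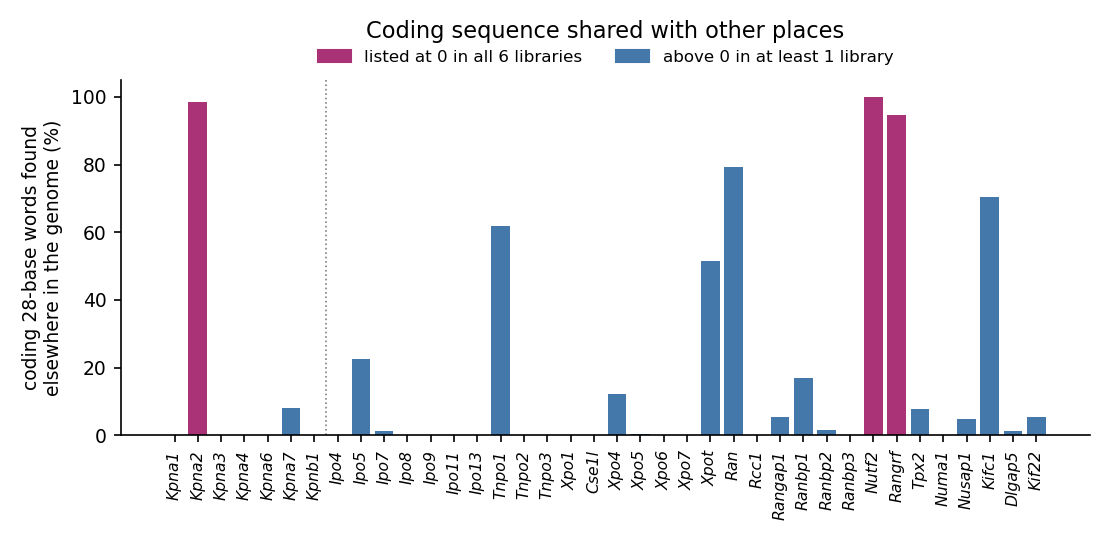
Share of each gene's coding 28-base words that also occur elsewhere in the GRCm38 genome (y axis, percent) for the 7 importin genes (left of the dotted line) and 31 related genes (x axis), purple where the gene was listed at 0 FPKM in all 6 libraries. The 3 purple bars, Kpna2, Nutf2 and Rangrf, are the 3 highest, at 98.5%, 100% and 94.7%.

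Levels are in FPKM, footprints scaled to the length of the coding sequence and to the reads of the library. Genes of different length can thus be set side by side within a library, but more or fewer footprints in the whole oocyte would leave the FPKM as they are. The reads behind each FPKM were recovered from the coding length, and 3 reads were taken as the floor. Replicates 1 and 2 rested on totals of 94309 and 107251 reads for the fully grown oocytes (WT_FGO), 164972 and 230907 reads for WT_MII, and 331304 and 275604 reads for Treat_MII. All 8 oocyte markers tested were above 0 in all 6 libraries. Of 12 granulosa or cumulus markers, genes of the somatic cells around the oocyte, 5 to 10 were above 0 in a library. Summed, they came to 857 and 1672 FPKM in the WT_FGO libraries, 2053 and 389 FPKM in the WT_MII libraries and 285 and 322 FPKM in the Treat_MII libraries, and none of the 12 was at 0 in every library. The steroid enzyme gene Hsd17b1 was the highest of them in 5 libraries, and Inha, at 747 FPKM, in WT_FGO replicate 2.

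Among the 7 genes, Kpna7 had the most footprints counted to it. Whether Kpna2 lacked footprints or its reads were not counted to it cannot be told from these values. Kpna7 held 740 (72.3%) of the 1024 reads on the 7 genes. It was measured at 381 and 424 FPKM in WT_FGO, at 268 and 308 in WT_MII and at 472 and 440 in Treat_MII, from 56, 71, 69, 111, 244 and 189 reads. All 6 libraries had it above every other member, and the 3 groups did not overlap, with WT_MII lowest and Treat_MII highest. Among the 22416 genes its rank lay between 241 and 426, within the highest 1.08% to 1.90% of the table. In counting error alone, the exact Poisson 95% interval reached from 209 to 339 FPKM in WT_MII replicate 1 and from 415 to 535 FPKM in Treat_MII replicate 1.

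**Figure D2:**
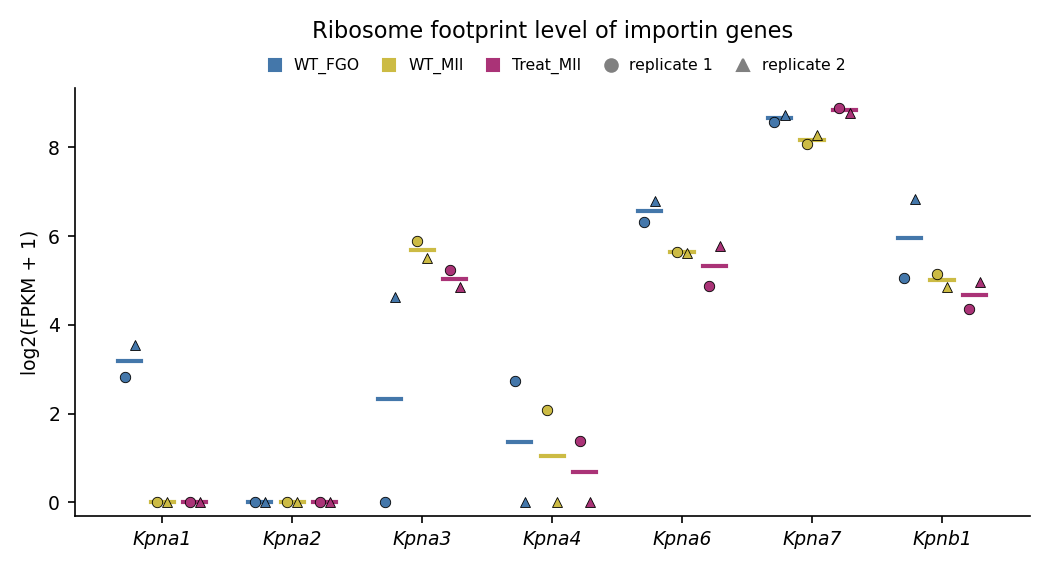
Footprint level of the 7 importin genes as log2(FPKM + 1) (y axis) in each library, with colours for the 3 groups, circles and triangles for replicates 1 and 2 and bars for group means (n = 2). Kpna7 is highest in every library, with group means of 402, 288 and 456 FPKM, while Kpna2 lies at 0 in all 6.

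Kpna6, an adapter of the Kpna1 group, came next among the adapters by group mean in WT_FGO and Treat_MII. It lay at 79.1 and 110 FPKM in WT_FGO, 49.0 and 48.5 in WT_MII and 28.2 and 54.2 in Treat_MII, from 12 to 24 reads per library. Both fully grown libraries lay above all 4 metaphase II libraries, and the control and treated metaphase II libraries overlapped. Kpna3, of the Kpna4 group, was listed at 0 and 23.9 FPKM in WT_FGO (0 and 4 reads), at 58.2 and 44.3 in WT_MII and at 36.7 and 27.9 in Treat_MII. Its order was thus the opposite of that of Kpna6 between the fully grown and the metaphase II stage, and the 2 WT_FGO values rested on 4 reads in all.

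Kpnb1, the carrier, was measured at 32.3 and 114 FPKM in WT_FGO, 34.6 and 28.01 in WT_MII and 19.5 and 30.4 in Treat_MII, from 8 to 32 reads. The value of 114 FPKM in WT_FGO replicate 2 stood apart from the other 5 libraries, which lay between 19.5 and 34.6. That library also had the most granulosa or cumulus markers above 0 (10 of 12). Summed, these markers were highest in WT_MII replicate 1 (2053 FPKM, against 1672 in WT_FGO replicate 2). Their part in the Kpnb1 value was not tested. The remaining adapters were at or under the floor in all libraries. Kpna1 had 1 and 2 reads in WT_FGO (6.05 and 10.6 FPKM) and 0 in the other 4 libraries. Kpna4 had 1 read in each replicate 1 library and 0 in each replicate 2. Kpna2 had no read in any library, which at 3 reads allows up to 19.0 and 16.7 FPKM in WT_FGO, 10.9 and 7.78 in WT_MII and 5.42 and 6.51 in Treat_MII, for reads that were counted to this gene. No fold is given for these 3 genes.

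Below Kpna7, neighbours in the order of levels mostly did not differ beyond their spread. In WT_FGO, Kpna6 (94.7 ± 21.9 FPKM, SD, n = 2) was followed by Kpnb1 (72.9 ± 57.5) and Kpna3 (11.9 ± 16.9), and the libraries of Kpna6 and Kpnb1 overlapped. In WT_MII, Kpna3 (51.3 ± 9.79) and Kpna6 (48.7 ± 0.373) overlapped and both lay above Kpnb1 (31.3 ± 4.66). In Treat_MII, Kpna6 (41.2 ± 18.4), Kpna3 (32.3 ± 6.25) and Kpnb1 (24.9 ± 7.67) overlapped from neighbour to neighbour.

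As a share of the summed FPKM of the 6 adapters, Kpna7 took 77.7% ± 4.35 (SD, n = 2) in WT_FGO, 73.8% ± 4.26 in WT_MII and 86.0% ± 2.39 in Treat_MII. The share of Kpna6 was 18.1% ± 1.82, 12.5% ± 0.605 and 7.81% ± 3.64 in the same order. Kpna3 had 0% and 4.19% in the WT_FGO libraries, 15.4% and 11.1% in WT_MII and 6.81% and 5.34% in Treat_MII. Both treated libraries thus had a higher Kpna7 share, and a lower Kpna3 share, than both control metaphase II libraries. Kpna7 exceeded Kpna6 4.81- and 3.85-fold in the WT_FGO libraries, 5.47- and 6.36-fold in the WT_MII libraries and 16.8- and 8.12-fold in the Treat_MII libraries. The summed adapters exceeded Kpnb1 in every library, by 5.01-fold in WT_FGO replicate 2 and by 10.9- to 27.6-fold in the other 5. Kpna2 entered these sums at 0, although its level is not known. Any footprints of Kpna2 that were not counted to it are thus missing from the shares and from the ratio to Kpnb1. These shares describe the libraries, and no test was run on them.

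**Figure D3:**
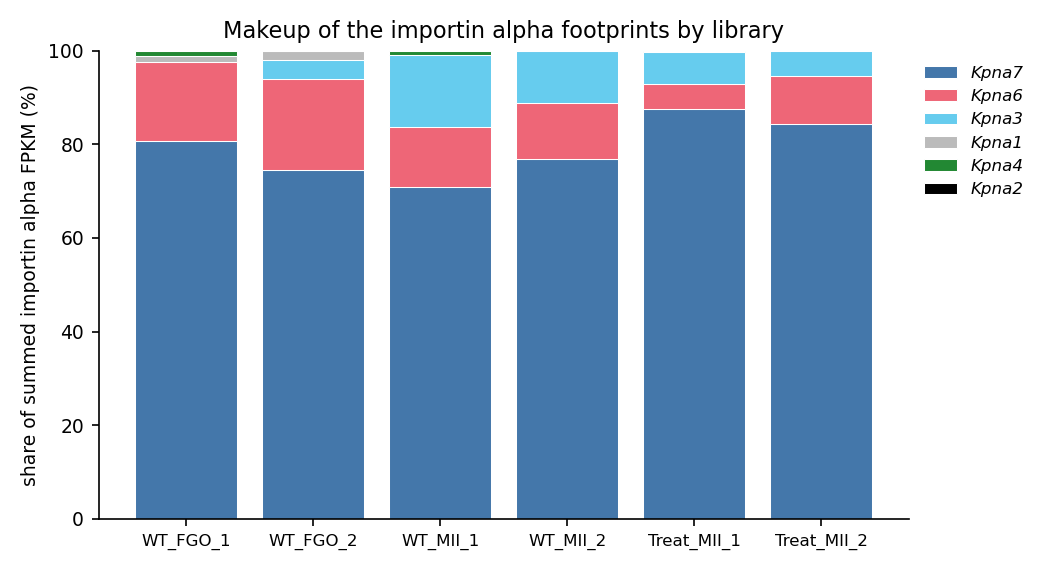
Share of each importin alpha gene in the summed importin alpha FPKM (y axis, percent, stacked to 100) in each of the 6 libraries (x axis). Kpna7 takes 70.8% to 87.7%, and the Kpna3 segment is absent in WT_FGO_1 and reaches 15.4% in WT_MII_1. Kpna2, whose level is not known, entered at 0.

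The comparison of WT_MII with WT_FGO asks which genes gained or lost footprints as control oocytes matured. Footprints depend on both the amount of an mRNA and its translation, and mRNA levels were not taken into account here. The study reports broad loss of maternal mRNA between these stages, and higher transcript levels in treated than in control metaphase II oocytes. No importin gene was called by limma on log2(FPKM + 1) at a Benjamini-Hochberg adjusted p under 0.05, with 6 of the 7 members tested and 6.76% of all 15127 genes tested called (3.67% as higher in WT_MII and 3.09% as lower). At an unadjusted p under 0.05 there was 1 member, Kpna1 (adjusted p = 0.110), whose values rest on 3 reads, beside 3443 genes (22.8%) of all tested. Groups did not overlap for 3 members with lower values in WT_MII (Kpna1, Kpna6 and Kpna7) and for 1 with higher values (Kpna3). Over all genes tested, 25.8% lay lower and 15.3% higher without overlap. Kpna2 was not tested, and Kpna1 passed the filter (mean FPKM of 1 or more) only through WT_FGO, so the count does not describe all members.

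The log2 difference of Kpna7 was -0.48 ± 0.26 (SE, 95% interval -1.11 to 0.14, adjusted p = 0.353 by limma). The median over all genes tested was -0.44. With each library centred on the median of its log2 ratios to the gene means, the difference of Kpna7 was -0.02. Kpna6 differed by -0.92 ± 0.50 (adjusted p = 0.371), both libraries of WT_MII lying lower. Kpna3 had the widest interval, 3.38 ± 1.45 (95% interval -0.16 to 6.91, adjusted p = 0.240). The value depended on the WT_FGO libraries and on the pseudocount. It was 1.06 without WT_FGO replicate 1 and 5.04 at a pseudocount of 0.1, and without replicate 2 only a library with 0 reads was left, so that the fitted 5.69 (adjusted p = 0.0125) is set by the pseudocount and is no bound. For Kpnb1 the difference was -0.94 ± 0.72 (adjusted p = 0.490), and it was -0.05 without WT_FGO replicate 2, the library that stood apart, and -1.83 without replicate 1 (adjusted p = 0.107).

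Treat_MII against WT_MII is the comparison of the G-quadruplex ligand with its control. Among the 15127 genes tested none was called by limma (0.0%; the smallest adjusted p was 0.248), and no importin gene was either. At an unadjusted p under 0.05 there were 882 genes (5.83%), 1 of them a member. With 1 of the 4 metaphase II libraries left out, 363 to 418 genes were called, again with no member among them. That member was Kpna7, 1.58-fold higher in the treated oocytes (456 ± 23.0 against 288 ± 28.3 FPKM, SD, n = 2). Its log2 difference was 0.66 ± 0.26 (95% interval 0.04 to 1.29), with an unadjusted p of 0.0405 and an adjusted p of 0.842 by limma. Both treated libraries lay above both controls, and the difference stayed between 0.55 and 0.76 under the other settings run, including each of the 4 metaphase II libraries left out in turn.

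The other members gave no direction that the spread allows to be stated. Kpna6 differed by -0.31 ± 0.50 (95% interval -1.54 to 0.92) and had overlapping libraries. When Treat_MII replicate 1 was left out its sign turned, to 0.15. Kpna3 was lower in both treated libraries, by -0.65 ± 1.45 (-4.18 to 2.88), and Kpnb1 differed by -0.34 ± 0.72 (-2.09 to 1.41) with overlap. Each of these 3 had an adjusted p of 1 by limma. With intervals this wide, these libraries do not show that the genes were alike between treated and control oocytes. In all, 1 member lay higher and 1 lower without overlap, against 16.2% and 15.6% of all genes tested.

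Treat_MII against WT_FGO shares libraries with both comparisons above. No member was called by limma here either, against 3.87% of all genes tested. An unadjusted p under 0.05 was found for 2 members, Kpna6 and Kpna1 with its 3 reads, all in WT_FGO, beside 3011 genes (19.9%) of all tested. Kpna6 differed by -1.23 ± 0.50 (adjusted p = 0.249) and Kpna3 by 2.73 ± 1.45 (adjusted p = 0.375). For Kpnb1 the value was -1.28 ± 0.72 (adjusted p = 0.400). Kpna3 and Kpnb1 rested on single WT_FGO libraries here too, with 0.41 for Kpna3 without replicate 1, and -2.17 and -0.39 for Kpnb1 without replicate 1 and 2. Kpna7 differed by 0.18 ± 0.26 (95% interval -0.44 to 0.80, adjusted p = 0.726), and by 0.53 with each library centred on the median. Without overlap, 2 members (Kpna3 and Kpna7) lay higher and 3 (Kpna1, Kpna6 and Kpnb1) lower in Treat_MII, beside 16.6% and 28.9% of all genes tested.

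**Figure D4:**
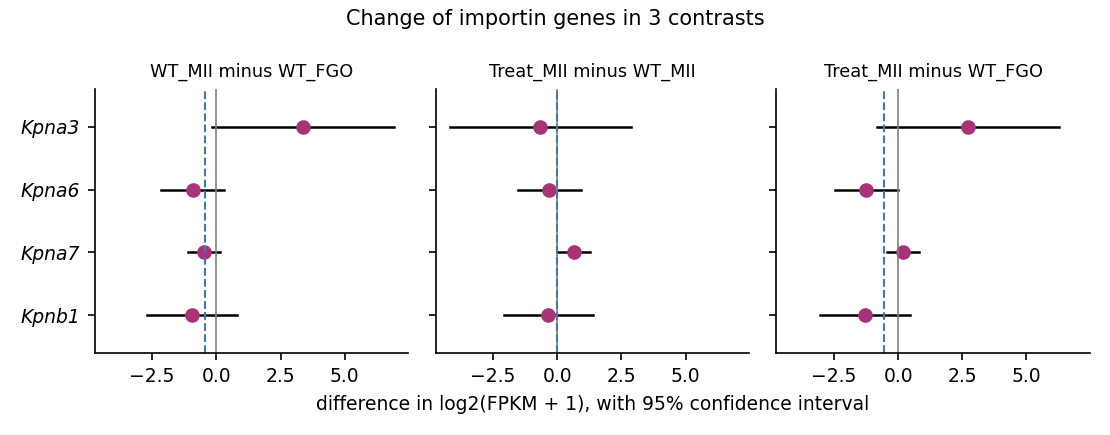
Difference in log2(FPKM + 1) (x axis) of the 4 members with more than 3 reads in at least 1 library, in the 3 comparisons, as points with 95% confidence intervals from limma, with a grey line at 0 and a dashed blue line at the median of all genes tested (-0.44, 0 and -0.53). Only the interval of Kpna7 in the treatment comparison and that of Kpna6 in the last comparison lie to one side of 0.

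The ends of the 3′ UTRs and the guanine runs of the members were read because both bear on translation in oocytes. The cytoplasmic polyadenylation element is the site of CPEB, which represses or activates stored mRNAs during maturation, and is most often effective near the polyadenylation signal. Its letters (TTTTAT or TTTTAAT, on the transcript strand) lay within the last 150 bases of the 3′ UTR in 1 of the 7 members, Kpnb1, and in 23.4% of 17686 genes with a 3′ UTR of at least that length. A polyadenylation signal (AATAAA or ATTAAA) was found in the last 50 bases of all 7, and in 75.1% of those genes. Kpna2 had no element anywhere in its 3′ UTR of 258 bases. The element nearest the 3′ end is shown for the 4 members with a measurable level, in capitals, from GENCODE transcripts on the minus strand of GRCm38.
Kpnb1, starting 13 bases from the transcript end (chr11:97159714-97159738): agtccgctttatTTTTATtttcaac
Kpna6, 239 bases from the end (chr4:129644201-129644230): aaattcatttgcTTTTATttttctaagaac
Kpna7, 353 bases from the end (chr5:144983854-144983883): gtggcaaacattTTTTATcagccgagggat
Kpna3, 708 bases from the end (chr14:61365901-61365930): attatttataggTTTTATaaattttagaat

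Whether the place of the element bears on the difference of any member at maturation was not tested. A match to these letters is a description and not a site shown to act.

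The G-quadruplex motif, here 4 stretches of 3 or more G that are 1 to 7 bases apart, occurred in 2 of the 7 members. Kpna4 held it once in the coding sequence, in exon 1, and Kpna6 held it at 2 places in its 3′ UTR. No member had it in the 5′ UTR. Of all genes with a representative transcript, 5.86% held the motif in the 5′ UTR, 3.66% in the coding sequence and 9.21% in the 3′ UTR. The matches are given with the G runs in capitals because the treatment is a ligand of such folds.
Kpna4, coding bases 270 to 288 (chr3:69126819-69126837): GGGGcccGGGcGGGtGGGG
Kpna6, 3′ UTR bases 12 to 30 (chr4:129647962-129647980): GGGGaGGGGaGGGcacGGG
Kpna6, 3′ UTR bases 456 to 475 (chr4:129647517-129647536): GGGaggtGGGaGGGGaGGGG

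Kpna4 had too few reads to compare, and the interval of Kpna6 between treated and control libraries was wide (-1.54 to 0.92). The other members held no match to this motif, which leaves out shorter runs of G. Whether the motif bears on any difference under treatment was not tested. Whether any of these letters form a fold in oocytes was not measured in these libraries.

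The importins work with other transport receptors, the Ran cycle and cargo proteins of the spindle, given here as 31 genes, of which 29 were tested. At maturation 2 rose (Ipo8 and Tpx2) and 1 fell (Nusap1) by limma, beside 3.67% higher and 3.09% lower of all genes tested, and the median difference of the 29 was -0.27 beside -0.44 for all genes tested. For Treat_MII against WT_FGO, Ipo8 and Tpx2 were again called, beside 2.86% of all genes tested called higher and 1.0% lower. None of these calls was left in either comparison when only the groups compared, or no variance trend, entered the fit. With no filter on low values, Tpx2 and Nusap1 lost their calls at maturation. Ipo8 and Tpx2 lost theirs when 1 library of the metaphase II group outside the comparison was left out. Tpx2 also lost its call without either metaphase II library of the comparison, and Nusap1 with any 1 library left out. Treatment gave no call among them, with a median of 0.01 beside 0. Ipo8, an import receptor that can carry cargo without importin alpha, was measured at 73.5 and 67.7 FPKM in WT_FGO, 524 and 516 in WT_MII and 390 and 481 in Treat_MII. All metaphase II libraries were above the fully grown ones, and the log2 difference at maturation was 2.86 ± 0.29 (adjusted p = 0.00525). Tpx2, a microtubule nucleation factor that importin alpha holds inactive, stood at 23.7 and 54.2 FPKM in WT_FGO, 336 and 521 in WT_MII and 528 and 532 in Treat_MII. It rose by 3.51 ± 0.47 (adjusted p = 0.0139). Nusap1, a microtubule-bundling protein also bound by importins, went the other way, from 215 and 335 FPKM to 28.4 and 54.1, with 87.2 and 110 in Treat_MII. Its fall was -2.74 ± 0.48 (adjusted p = 0.0286).

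By role, the 10 other import receptors had 1 gene called higher and none lower at maturation, with a median of -1.05. Transportin 1 (Tnpo1), the import receptor of many RNA-binding proteins, had 0 and 24.2 FPKM in WT_FGO and 151 to 210 in all 4 metaphase II libraries without passing the test (5.12 ± 1.40, adjusted p = 0.0912). It passed with each library centred on the median (adjusted p = 0.0391) and with weights from the reads (0.0310), and 62.0% of its coding words occur elsewhere. Neither the 7 exportins nor the 6 tested Ran cycle genes had a call, with medians of -0.27 and -0.41. Cse1l, which returns importin alpha to the cytoplasm, lay between 25.5 and 44.8 FPKM in all 6 libraries with overlap (-0.27 ± 0.54 at maturation). Ran itself had 3 to 19 reads per library and 79.4% of its words elsewhere, so its level is uncertain. The 6 spindle factors had the highest of the 4 medians, with 5 of 6 differences at maturation above 0 (37.98% over all genes tested), of which Tpx2 alone was called. Of the 5, Kifc1 had 1 and 0 reads in WT_FGO, and Kif22, with overlapping libraries, had 4 and 0. The list was chosen with earlier results of these data known, so the 5 of 6 is a description only. Dlgap5, a spindle factor also known as HURP, lay between 61.1 and 111 FPKM and made up 1 of the 5 with a difference of 0.00 ± 0.44. Per coding length, Tpx2 lay below Kpna7 in both WT_FGO libraries and above it in all 4 metaphase II libraries.

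**Figure D5:**
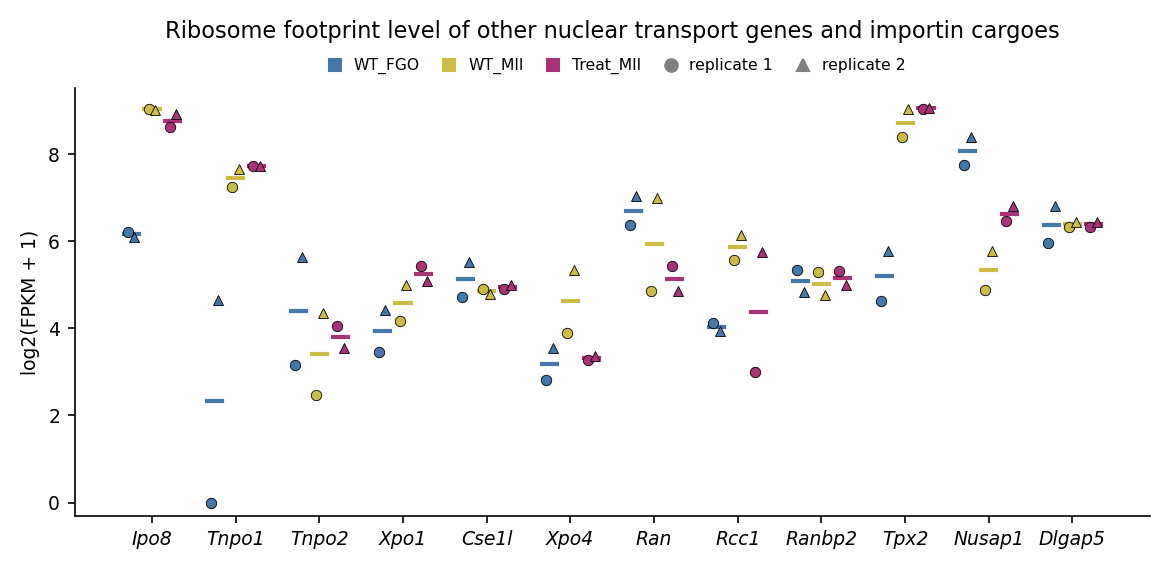
Footprint level as log2(FPKM + 1) (y axis) of 12 nuclear transport genes and importin cargoes, the 3 with the highest mean FPKM of each list or called at maturation, in each library, drawn as in the plot of the importin genes. Ipo8 and Tpx2 lie higher, and Nusap1 lower, in all metaphase II libraries than in WT_FGO.

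Patterns over the 6 libraries were compared by Pearson r of log2(FPKM + 1) among 2078 genes whose mean FPKM was 50 or more. Genes with a predicted or clone name (Gm, Rik or LOC) were left out. Among those compared, the genes most like Kpna7 were Insig1 (r = 0.948), Ost4 (0.914) and Rdx (0.913). For Kpna6, the only other member above that mean, they were Hs3st3b1 (0.990), Scgn (0.975) and Gimap1 (0.970). With 6 libraries in 3 groups, which also share their depth, these values describe likeness only. Insig1, for example, was at 54.6 and 96.0 FPKM in WT_FGO, 31.2 and 33.4 in WT_MII and 89.3 and 70.0 in Treat_MII, so it was lowest in WT_MII as Kpna7 was, but did not separate WT_FGO from Treat_MII.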

How the data were processed

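Ribo-lite libraries of 500 mouse oocytes were deposited by the authors as one table of FPKM values per gene and library, unpooled and without a stated spike-in scaling. Per the labels, mm10, cutadapt 1.14, Bowtie2 2.2.2 and STAR 2.5.3a were used. The counting program, the annotation and the handling of molecular identifiers and of reads with several places are not given in the sources used here. After 26 entries with a repeated name were left out, 22416 genes remained. FPKM multiplied by the union coding length of GENCODE mouse release 21 (GRCm38) gave whole reads (tolerance 0.02) for 98.4% of the 21381 genes that had one length, in every library. PCR copies are not independent molecules, so the intervals and the floor take in counting error alone.

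The 15127 genes whose mean FPKM was 1 or more were fitted over all 6 libraries with limma 3.58.1 in R 4.3.3 (lmFit and eBayes with a variance trend) on log2(FPKM + 1), which understates changes of low genes. Calls had a Benjamini-Hochberg adjusted p under 0.05 over all genes tested. The script was tested on simulated data. A count model was not used because FPKM are not counts. Tables were made with Python 3.11.15. The alternatives were another pseudocount (0.1), no filter or a mean of at least 5 FPKM, median centring, quantile normalization, the replicate number as a block, only the groups compared, no variance trend, weights from the recovered reads, and each library left out.

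The representative transcript of a gene was the one with the longest coding sequence. Named were the 7 members, list genes called in a comparison, the 3 of each list with the highest mean FPKM, and the 3 genes most like each member with a mean of at least 50 FPKM. Other genes named (Nutf2, Rangrf, Kifc1, Kif22, Gm10184, Gm10259, Inha and Hsd17b1) were chosen after their values were seen. The members and lists were chosen with earlier results of these data known.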

Additional observations from a re-analysis of the deposited data

How the results depend on the processing

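The 4 members above the floor had 12 differences, recomputed 156 times under the alternatives: 153 kept direction and side of the threshold, 2 passed it and 1 changed sign. Those were Kpna3 without WT_FGO replicate 2 (5.69 at maturation and 5.04 for Treat_MII against WT_FGO, adjusted p = 0.0125 and 0.0167 by limma) and Kpna6 under treatment without Treat_MII replicate 1 (0.15, against -0.77 without replicate 2). The cause was not tested. With a library left out, the number of members called ranged from 0 to 2 at maturation and from 0 to 2 for Treat_MII against WT_FGO. In both comparisons the calls were 1 without WT_FGO replicate 1 (Kpna1) and 2 without WT_FGO replicate 2 (Kpna1 and Kpna3), but these calls carry no weight: the 1 WT_FGO library left for Kpna1 had 1 or 2 reads against 4 libraries at 0, which have no spread, and that for Kpna3 had 0 reads. The 3 other transport genes called at maturation became 1 with no filter, 0 with only the groups compared and 0 with no variance trend, and 0 to 5 with a library left out (5 without WT_FGO replicate 1, 1 without either WT_MII library and 0 without either Treat_MII library). Over all genes, the 1023 calls at maturation became 536, 0 and 328 under the first 3 of these settings, and the 585 for Treat_MII against WT_FGO became 32 with only the groups compared, 59 with no variance trend and 1047 with weights from the reads. The calls at maturation were also all lost without either Treat_MII library. Those libraries enter that comparison only through the estimate of spread. Treatment, with 0 calls over all genes, gave 27 with no filter and 363 to 418 with a metaphase II library left out, no member among them. Same-numbered libraries did not deviate together (correlations 0.0342, 0.0176 and 0.0189 over 2706 genes), so the numbers were not taken as pairs. With the replicate block, 0 members were called in each of the 3 comparisons and 3 and 0 transport genes at maturation and under treatment. Kpna1, Kpna2, Kpna4 and the WT_FGO value of Kpna3 rest on 4 reads or fewer per library, too few to show a difference.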
